A study of Mus musculus with 3 samples.

Results

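The genes followed here encode the killing machinery of cytotoxic lymphocytes: the granzymes Gzma, Gzmb, Gzmc, Gzmf and Gzmk, the perforin gene Prf1, the death ligand Fasl, the cytokine Ifng, the chemokine Ccl5 and the granule membrane protein gene Nkg7. They were taken by symbol from the deposited gene list and are 10 of its 55357 genes. All 10 had UMIs (counted RNA molecules) in every library. The samples were tumours of LLC1, a mouse Lewis lung carcinoma line, 14 days after 1000000 cells in 10 µL were placed in the tibial marrow of 8-week-old mice. Live cells were sorted with a viability dye before 3′ single-cell sequencing. There was 1 library for each of 3 hosts: wild type (WT), DMP1-Cre Mfn2 knockout and DMP1-Cre Rhot1 knockout, called the WT, Mfn2 and Rhot1 libraries. Each library was a pool of tumours from 3 mice, and no file says which mouse a cell came from. A pool is therefore 1 sample, and no difference between hosts was tested. Mfn2 encodes a mitochondrial fusion GTPase and Rhot1 a GTPase of mitochondrial transport. DMP1-Cre is active in osteocytes, the cells embedded in bone, so the knockouts are directed at host bone cells and not at the lymphocytes or the injected line. The WT labels name no Cre. Effects of Cre itself and of losing either gene cannot be told apart.

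Killer T cells and natural killer (NK) cells store granzymes, which are serine proteases, and perforin in secretory granules. On contact with a target cell the granules are released, perforin opens the target membrane, and granzymes enter and cleave substrates that start cell death. Fas ligand triggers death through the receptor Fas, interferon gamma acts on tumour and myeloid cells through its own receptor, and Ccl5 attracts further leukocytes. Mice carry a larger granzyme family than humans, and Gzmc, Gzmd, Gzme, Gzmf and Gzmg lie beside Gzmb in 1 gene cluster.

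On the mm10 build, with GENCODE M21 gene models, the chromosome 14 cluster held 7 granzyme genes within 145 kb. Of the members, it contains Gzmb (chr14:56258838-56262260), Gzmc (chr14:56231441-56234656) and Gzmf (chr14:56205263-56211417), all on the minus strand. Gzma (chr13:113093825-113100981) and Gzmk (chr13:113171608-113225908) lie together on chromosome 13 within 132 kb. The other members lie outside these granzyme groups: Prf1 (chr10:61297833-61304680), Ifng (chr10:118441046-118445892), Fasl (chr1:161780689-161788495), Nkg7 (chr7:43437073-43438249) and Ccl5 (chr11:83525778-83530518).

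The proximal promoters of the 3 clustered members are shown so that these neighbouring genes, whose levels are compared below, can be compared in sequence. Each is the 250 bases before the RefSeq start site on GRCm38.p6, read on the minus strand from 5′ to 3′. Capitals mark TGTGGT or its reverse complement, the core letters bound by RUNX factors, which drive cytotoxic genes in T and NK cells.
Gzmb, chr14:56262335-56262584: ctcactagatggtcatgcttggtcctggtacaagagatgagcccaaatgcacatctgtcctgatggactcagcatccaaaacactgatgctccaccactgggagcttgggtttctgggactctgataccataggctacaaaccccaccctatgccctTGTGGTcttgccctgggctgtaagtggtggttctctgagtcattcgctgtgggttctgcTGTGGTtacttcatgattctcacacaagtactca
Gzmc, chr14:56234658-56234907: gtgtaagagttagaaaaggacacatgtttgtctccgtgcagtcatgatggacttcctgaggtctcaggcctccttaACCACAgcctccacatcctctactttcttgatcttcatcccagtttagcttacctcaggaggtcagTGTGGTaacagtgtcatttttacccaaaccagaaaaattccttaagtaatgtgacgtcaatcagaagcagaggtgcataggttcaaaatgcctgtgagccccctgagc
Gzmf, chr14:56211408-56211657: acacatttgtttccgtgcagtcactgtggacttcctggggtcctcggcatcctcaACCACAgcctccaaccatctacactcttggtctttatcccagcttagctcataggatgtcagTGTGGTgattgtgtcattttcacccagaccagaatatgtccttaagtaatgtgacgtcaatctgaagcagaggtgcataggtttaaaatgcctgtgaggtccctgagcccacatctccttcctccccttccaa
Each of the 3 windows held the motif in 2 places. The Gzmc and Gzmf windows were 70.2% identical to each other over the aligned columns, and the Gzmb window was 47.5% identical to that of Gzmc and 47.2% to that of Gzmf. These Gzmb values are close to those against Gzma and Gzmk on chromosome 13, 45.4% and 46.8%. Of the 9 members with a RefSeq window (no window was used for Ccl5), 6 held TGTGGT on either strand, against 14.0% of 32851 promoter windows of the same length. The T-box letters GGTGTG were in 3 of the 9 members and 16.3% of all windows, and the AP-1 letters TGANTCA were in 1 of the 9 and 6.75% of all windows. A match describes the letters only.

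The 3′ ends of Gzma, Gzmb, Gzmc and Gzmk shared no 31-base word with another granzyme in their last 400 bases. For Gzmf 16.8% of these words were also in another granzyme, most often Gzmg. Counts of Gzmf, and of Gzmd, Gzme and Gzmg (30% to 34.1% shared), may be affected by the shared sequence, which was not tested. Levels below are UMIs per 1000000 UMIs of the class (CPM). They count 3′ tags and were not divided by gene length.

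Of 9393, 10016 and 9534 deposited barcodes, 9041, 9560 and 9138 were kept as cells in the WT, Mfn2 and Rhot1 libraries. The barcodes of each library summed to 112088653, 118123705 and 118223251 UMIs. Between 20 and 35 cell barcodes were shared by any pair of libraries. Clusters with T or NK markers were divided cell by cell. CD8 T cells had a UMI of Cd3d, Cd3e or Cd3g and of Cd8a or Cd8b1 and none of Cd4. Other T cells had CD3 without meeting that rule, and NK cells had no CD3 and a UMI of Ncr1, Klrb1c, Klre1, Klra4 or Klra8. None of the 10 members was used in the clustering or the gates.

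CD8 T cells numbered 116, 50 and 81 in the WT, Mfn2 and Rhot1 libraries, or 1.28% (1.06 to 1.54), 0.523% (0.388 to 0.689) and 0.886% (0.705 to 1.10) of kept cells. Other T cells numbered 167, 50 and 71, and NK cells 108, 32 and 55. All 3 classes were the largest share of the WT library and the smallest of the Mfn2 library. Intervals in parentheses throughout are exact 95% intervals of counting error only. Differences between mice and between cells are not in them, so for genes whose RNA sits in few cells they understate the error. Cd8a was detected in 84.5%, 84.0% and 85.2% of CD8 T cells. Ncr1, an NK receptor, was detected in 58, 20 and 46 NK cells, and the T-cell receptor transcript Trac in 3, 0 and 1 of them. The receptor transcript Trbc1 was detected in 70, 23 and 52 NK cells. The NK gate therefore holds cells without CD3 or Trac, but most have the T-cell receptor transcript Trbc1. The gate marker Klra4 was in 42, 8 and 20 NK cells, and it was also detected in many tumour-like cells.

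Some barcodes in these classes also carried tumour RNA. Barcodes with at least 4 UMIs of the tumour keratins Krt8 and Krt18 numbered 2, 9 and 1 among CD8 T cells, 3, 3 and 0 among other T cells and 3, 4 and 0 among NK cells. In the Mfn2 library they held 59.0% of all CD8 T cell UMIs and 59.7% of all NK cell UMIs, against 14.8% and 16.1% in WT. Their deep non-lymphoid RNA enters the denominator of every CPM value, so Mfn2 values that change without them are given in that setting too, which was chosen after the values were seen. Myeloid RNA was present too: the neutrophil marker S100a8 was in 24, 15 and 16 CD8 T cells, 33, 16 and 12 other T cells and 30, 5 and 11 NK cells, and the macrophage marker C1qa in 18, 6 and 16, 20, 11 and 4, and 17, 3 and 7. The S100a8 UMIs were less even than the cells: 992, 21 and 17 in CD8 T cells, or 2223, 73.2 and 65.7 CPM in the WT, Mfn2 and Rhot1 libraries. There were 201, 25 and 88 in other T cells and 44, 38 and 13 in NK cells. The part of myeloid RNA in the levels below was not tested.

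The granzymes divided the killer-cell classes. Gzma and Gzmc were mostly RNAs of NK cells, and Gzmf was found in a few cells only. All but 5 Gzmk UMIs of the kept cells were in CD8 T cells. Gzmb was mainly shared by NK and CD8 T cells in the WT and Rhot1 libraries. In the Mfn2 library other T cells held 28.1% of the Gzmb UMIs, CD8 T cells 25.3% and NK cells 39.4%. For each member except Ccl5, the T and NK clusters held at least 88.0% of the UMIs of every library. To compare detection across depths, each cell was thinned to 1000 UMIs. Members other than Ccl5 were then found in at most 3.23% of the cells of any class outside these clusters (1 of 31 B-cell barcodes), and in under 1% of macrophage-, monocyte-, neutrophil- and tumour-like cells.

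**Figure D1:**
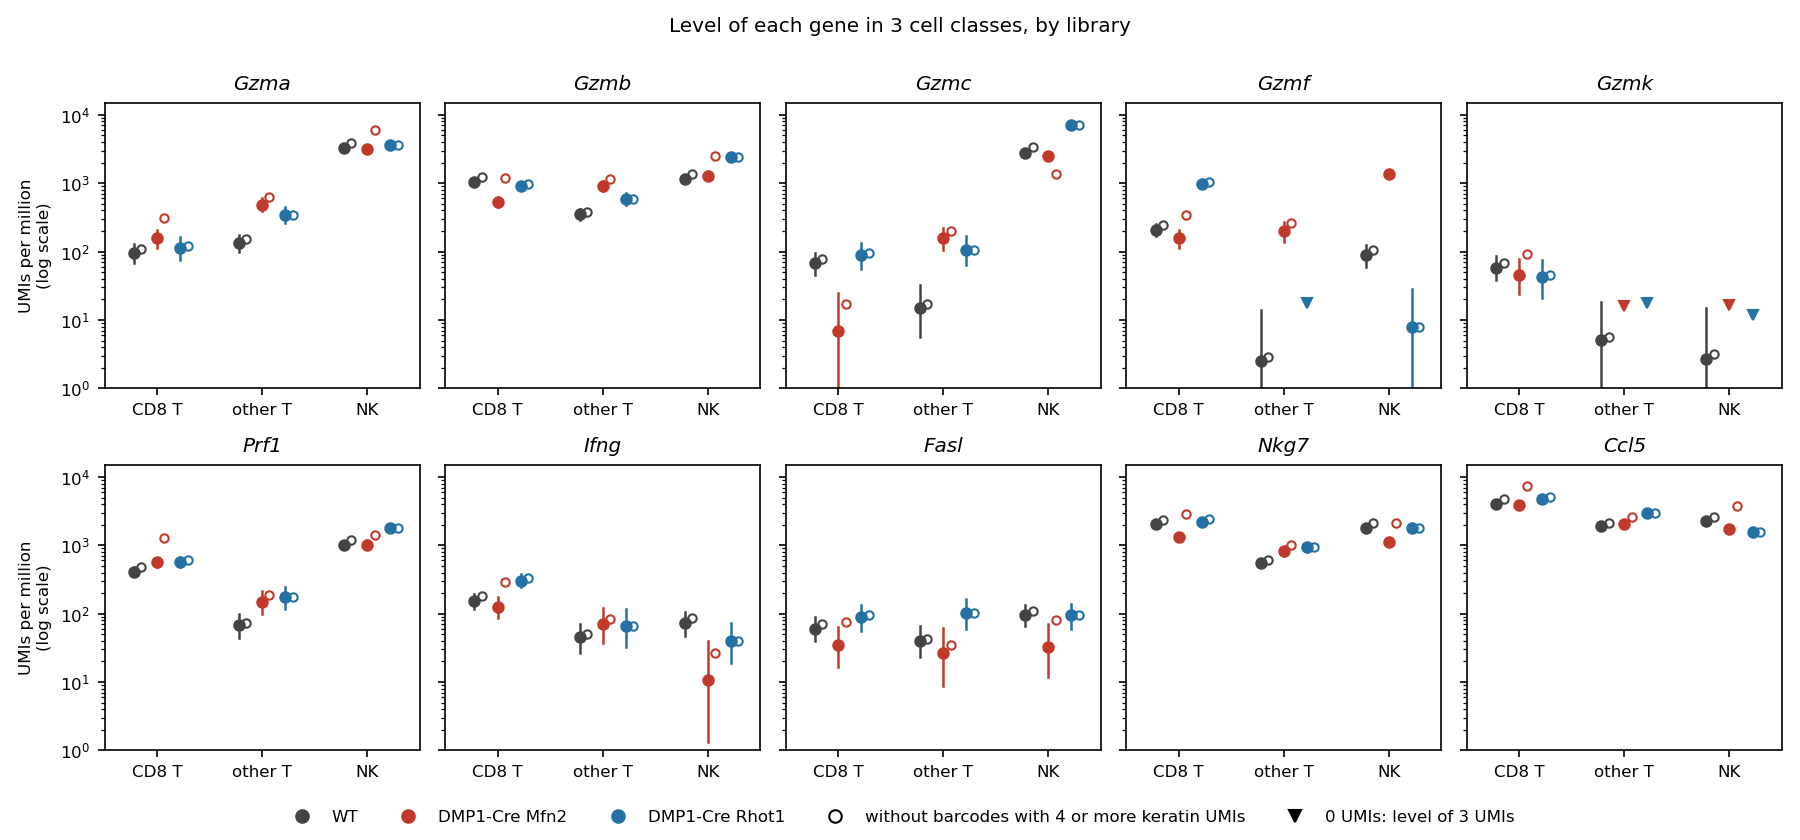
UMIs per 1000000 UMIs of the class (log axis) for each gene in CD8 T, other T and NK cells, with exact Poisson 95% intervals; grey is WT, red Mfn2 and blue Rhot1. Open circles leave out barcodes with at least 4 keratin UMIs, and triangles mark genes with 0 UMIs at the level that 3 UMIs would give. Gzma and Gzmc are highest in NK cells in all 3 libraries, and Gzmk is highest in CD8 T cells.

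Gzma encodes a tryptase that is abundant in resting NK cells. Its level in NK cells was 3312 CPM (3130 to 3501) in WT, 3216 CPM (2962 to 3486) in Mfn2 and 3575 CPM (3346 to 3815) in Rhot1, and these intervals overlap. In CD8 T cells it was 94.1, 157 and 112 CPM, with Mfn2 at 1.67 times WT, 2.77 without keratin barcodes and 1.19 without the top cells. In other T cells it was 134, 488 and 345 CPM, lowest in WT. Requiring 2 UMIs of the gate markers turned the log2 ratio of Mfn2 to WT there from 1.87 to -0.13. NK cells with a Gzma UMI made up 78.7%, 78.1% and 70.9% of the class, so Gzma RNA was spread over most NK cells of each library. Only 12, 7 and 7 CD8 T cells and 8, 8 and 8 other T cells had a UMI. The Mfn2 NK level was 6083 CPM without the keratin barcodes, against 3865 CPM in WT, a ratio of 1.57 (1.41 to 1.76) where it was 0.971 (0.879 to 1.07) with them.

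Gzmb encodes the aspartate-cleaving protease that activates caspases in the target. Its CD8 T level was 1044 CPM (952 to 1144) in WT, 533 CPM (452 to 625) in Mfn2 and 897 CPM (785 to 1020) in Rhot1. The lower Mfn2 value, a ratio of 0.511 (0.423 to 0.614), was not seen without keratin barcodes, where the levels were 1226, 1206 and 974 CPM and the ratio was 0.984 (0.810 to 1.19). Its detection was not lower either: a Gzmb UMI was in 60.3%, 72.0% and 61.7% of CD8 T cells, and in 43.9%, 55.1% and 46.2% after thinning. A single WT cell held 168 of the 466 Gzmb UMIs of WT CD8 T cells, and without the top cell of each library the ratio was 0.724.

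In NK cells Gzmb was at 1169 CPM (1062 to 1283) in WT, 1295 CPM (1136 to 1470) in Mfn2 and 2458 CPM (2269 to 2659) in Rhot1. The Rhot1 interval lies above the others. The ratio of Rhot1 to WT was 2.10 (1.86 to 2.38), 1.81 without keratin barcodes and 2.28 without the top cells. Detection differed less, at 71.3%, 87.5% and 76.4% of NK cells, and 51.0%, 66.7% and 52.7% after thinning. Without keratin barcodes the Mfn2 NK level was 2487 CPM, close to the Rhot1 level of 2458 CPM and above the WT level of 1355 CPM.

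Other T cells carried less Gzmb than CD8 T cells in WT, 350 CPM (294 to 413). Their level was 911 CPM (780 to 1059) in Mfn2 and 583 CPM (473 to 710) in Rhot1, and the 3 intervals do not overlap. The ratios to WT were 2.60 (2.07 to 3.28) and 1.67 (1.27 to 2.17). With the gates applied to all kept cells the log2 ratio of Rhot1 to WT was -0.0008, where it was 0.74. A Gzmb UMI was in 29.9%, 44.0% and 40.8% of these cells, and in 18.7%, 35.6% and 31.3% after thinning. In the part of the class with Cd4 or Foxp3, markers of helper and regulatory T cells, Gzmb was at 413, 1215 and 750 CPM in 38, 20 and 22 cells. In cells with Trdc, Trgc1 or Trgc2 and neither of these it was at 326, 2111 and 289 CPM in 48, 5 and 17 cells. The largest part had none of these markers, with Gzmb at 333, 368 and 622 CPM in 81, 25 and 32 cells. There the Mfn2 level was close to WT.

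Gzmc encodes a granzyme of strongly activated mouse killer cells. In NK cells it was at 2798 CPM (2632 to 2973) in WT, 2481 CPM (2259 to 2720) in Mfn2 and 7036 CPM (6714 to 7370) in Rhot1. The Rhot1 value was 2.52 times WT (2.33 to 2.72), 2.11 times without keratin barcodes and 2.06 times without the top cell of each library. More Rhot1 NK cells held a Gzmc UMI: 61.8% (47.7 to 74.6), against 29.6% (21.2 to 39.2) in WT and 21.9% (9.28 to 40.0) in the Mfn2 library. Before thinning, the interval of the Rhot1 share lies above both others. NK cells of the Rhot1 library were also deeper, with a median of 3918 UMIs against 2368 and 2735. After thinning the shares were 47.3%, 25.5% and 16.7%, in the same order, and the Rhot1 and WT intervals overlap. In the Mfn2 library 356 of the 456 Gzmc UMIs were in keratin barcodes, and without these the level was 1352 CPM, 0.405 (0.327 to 0.498) of WT.

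Gzmc RNA was concentrated in single cells. In the Rhot1 library 552 of the 1789 NK UMIs were in 1 cell of 11321 UMIs, and the top NK cells of the WT and Mfn2 libraries had 136 and 202. The highest count of all was outside the 3 classes: a WT cell of 10459 UMIs in the T or NK clusters, with no CD3 or NK-gate marker, held 654 Gzmc, 110 Prf1 and 102 Gzmb UMIs. That cell alone held 34.6% of the Gzmc UMIs of the WT library, and just 4, 2 and 4 cells held at least 50% of them in the WT, Mfn2 and Rhot1 libraries. For Nkg7 the same share took 72, 28 and 42 cells and for Ccl5 67, 35 and 55 cells. Gzmc in CD8 T cells gave 30, 2 and 23 UMIs, from 4, 2 and 4 cells.

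**Figure D2:**
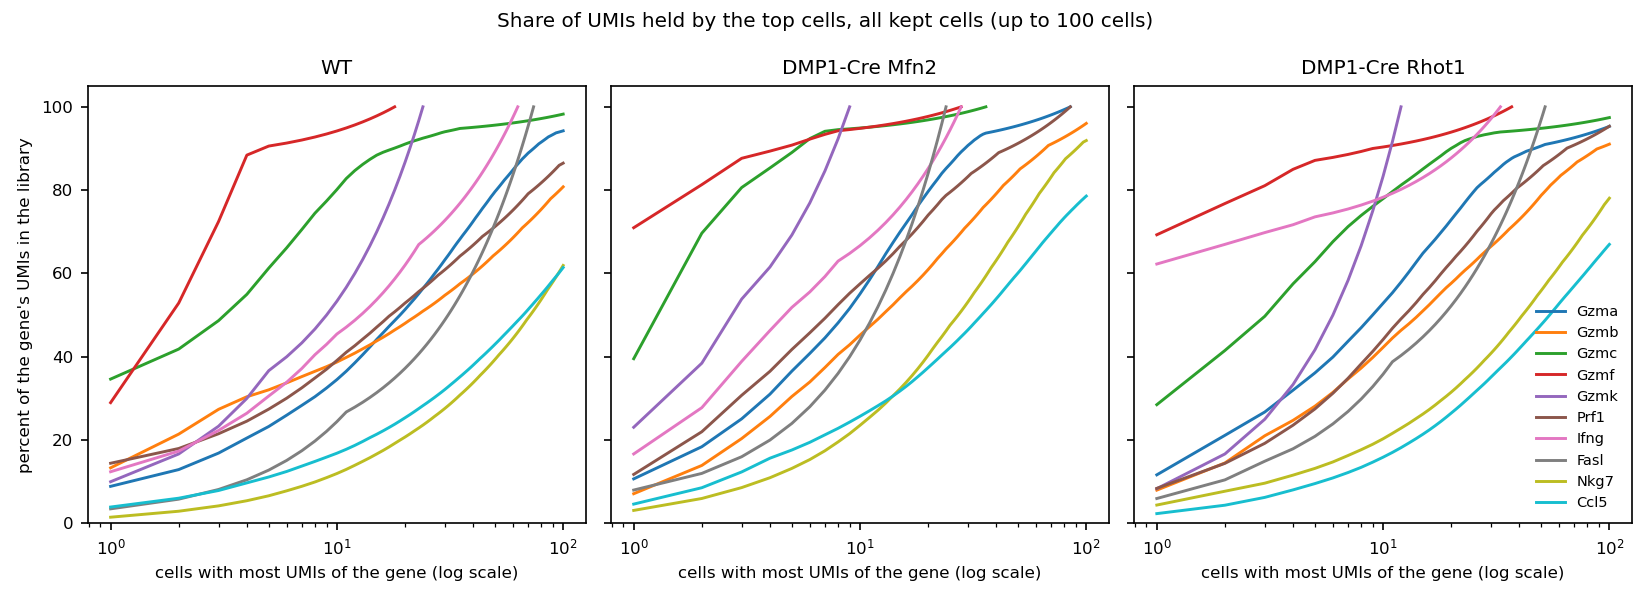
Percent of each gene's UMIs in a library (vertical axis) held by its top cells, from 1 to 100 cells (log axis), over all kept cells. The Gzmc and Gzmf curves start highest, with Ifng joining them in the Rhot1 library, while Nkg7 and Ccl5 rise slowest.

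NK cells with Gzmc carried little Ccl5. Without keratin barcodes, 71 NK cells had a Gzmc UMI and 117 had none; this division was chosen after values were seen. Ccl5 was at 214 CPM (147 to 303), 88.5 CPM (10.7 to 320) and 405 CPM (323 to 501) in the Gzmc-positive cells of the WT, Mfn2 and Rhot1 libraries. In the Gzmc-negative cells it was at 4752 CPM (4426 to 5095), 5372 CPM (4757 to 6045) and 6690 CPM (5969 to 7473). The intervals of the 2 kinds of cell do not overlap in any of the 3 libraries. Over all libraries the ratio was 0.0596 (0.0490 to 0.0720). The Gzmc-positive cells were the deeper ones, with a median of 5124 UMIs against 1936, and a Ccl5 UMI was in 38.0% of them against 82.9%, or 18.6% against 73.6% after thinning. With 3 libraries, an exact paired permutation test could not give a two-sided p under 0.25, and none is given.

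**Figure D3:**
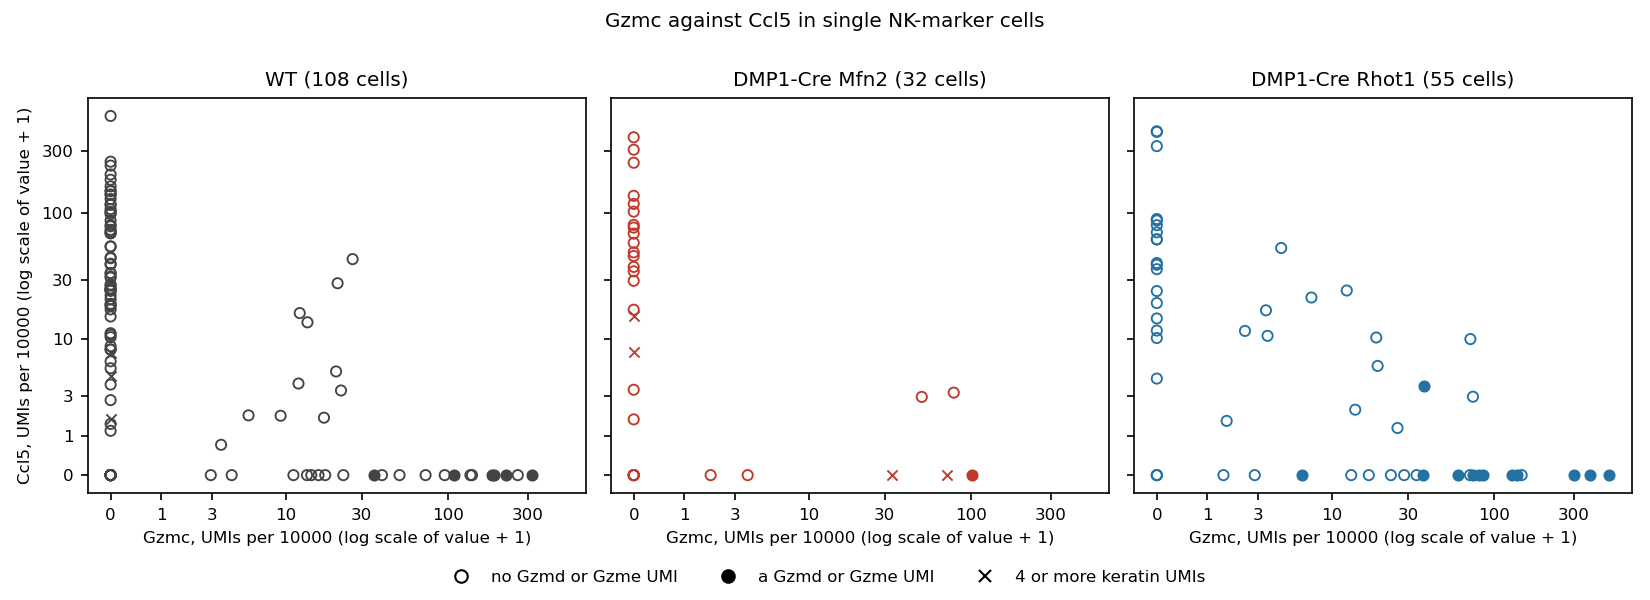
Gzmc (horizontal axis) against Ccl5 (vertical axis) in each NK cell, in UMIs per 10000 UMIs of the cell on log scales of the value plus 1; filled points have a Gzmd or Gzme UMI and crosses are barcodes with at least 4 keratin UMIs. Cells with the most Gzmc lie along the bottom of each panel, and cells with the most Ccl5 lie along its left edge.

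The other granule genes went different ways in the cells with Gzmc. Gzmb was at 2399 CPM in Gzmc-positive and 1235 CPM in Gzmc-negative NK cells, a ratio of 1.94 (1.71 to 2.21), and Prf1 at 1848 and 883 CPM, a ratio of 2.09 (1.80 to 2.44). Both were higher in all 3 libraries. Serpinb9b, a relative of the serpin that protects killer cells from their own granzyme B, was 4.04 times higher (2.05 to 8.86). Gzmd and Gzme gave 802 and 426 UMIs in Gzmc-positive cells and 0 in the others, and every NK cell with Gzmd or Gzme also had Gzmc. With keratin barcodes counted, these were 6, 3 and 12 cells for Gzmd and 5, 3 and 11 for Gzme in the WT, Mfn2 and Rhot1 libraries. The Mfn2 cells included barcodes with 16 and 31 keratin UMIs. Without these the Mfn2 library had 32 Gzmd and 25 Gzme UMIs in NK cells, all in 1 cell of 5491 UMIs. Nkg7 was lower, with a ratio of 0.791 (0.708 to 0.885), in 2 of 3 libraries, and Fasl was lower in all 3. Gzma was at 3369 against 4920 CPM, also lower in all 3 libraries, a ratio of 0.685 (0.633 to 0.740). The chemokines Ccl3 and Ccl4 were also lower, with ratios of 0.0708 (0.025 to 0.163) and 0.123 (0.0645 to 0.219). So was Il18r1, a subunit of the interleukin 18 receptor, at 0.300 (0.185 to 0.474).

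Gzmf lies in the same gene cluster as Gzmc, but CD8 T cells held 67.4% and 89.6% of its UMIs in the WT and Rhot1 libraries. In the Mfn2 library 71.0% of them were in 1 NK barcode. In CD8 T cells it gave 93 UMIs in 5 WT cells, 45 in 6 Mfn2 cells and 251 in 9 Rhot1 cells, or 208 CPM (168 to 255), 157 CPM (114 to 210) and 971 CPM (854 to 1098). A single Rhot1 cell held 194 of the 251 UMIs. The Rhot1 to WT ratio of 4.66 (3.66 to 5.97) was 1.90 without the top cell of each library, and the share of CD8 T cells with a UMI was 4.31% (1.41 to 9.77) in WT and 11.1% (5.21 to 20) in the Rhot1 library. The Mfn2 CD8 T ratio of Gzmf to WT was 0.752, and 1.39 without keratin barcodes. In NK cells Gzmf came from 1 WT cell with 33 UMIs, 1 Mfn2 barcode with 247 and 2 Rhot1 cells with 1 UMI each, and all of these also had Gzmc. The Mfn2 barcode had 46281 UMIs and 31 keratin UMIs and also held 413 Gzmg and 195 Gzmd UMIs. Without keratin barcodes Mfn2 NK cells had 0 Gzmf UMIs.

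Gzmk encodes a tryptase of memory and exhausted-type CD8 T cells. It gave 26, 13 and 11 UMIs in CD8 T cells, or 58.3 CPM (38.1 to 85.4), 45.3 CPM (24.1 to 77.5) and 42.5 CPM (21.2 to 76.1), with overlapping intervals. The Mfn2 level without keratin barcodes was 93.4 CPM against 68.4 in WT. The cells with a UMI were 20, 9 and 11, or 17.2%, 18.0% and 13.6% of the class. No cell held more than 3 UMIs, where the top Gzmc cell held 654. Other T cells had 2, 0 and 0 Gzmk UMIs and NK cells 1, 0 and 0. A count of 0 in these classes allows up to 16.1 and 17.8 CPM in other T cells and 16.3 and 11.8 CPM in NK cells of the Mfn2 and Rhot1 libraries, the levels that 3 UMIs would give.

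Prf1 encodes perforin, the pore-forming protein. In NK cells it was at 1022 CPM (923 to 1130), 1023 CPM (882 to 1180) and 1790 CPM (1629 to 1962), and the Rhot1 interval again lies above the others. Its Rhot1 to WT ratio was 1.75 (1.53 to 2.01), 1.70 without the top cells and 1.5 without keratin barcodes. A Prf1 UMI was in 70.4%, 90.6% and 87.3% of NK cells, and in 51.0%, 56.7% and 61.8% after thinning. Prf1 in CD8 T cells was at 412 CPM (355 to 476), 568 CPM (484 to 662) and 565 CPM (477 to 664). The Mfn2 value was 1.38 times WT (1.11 to 1.71), and 2.62 times (2.09 to 3.26) without keratin barcodes, where the level was 1266 CPM. Without the top cell of each library it was 1.21 times WT, and 1 Mfn2 cell held 41 of the 163 UMIs. Other T cells had 68.0, 150 and 173 CPM, from 14, 7 and 8 cells, and the log2 ratio of Rhot1 to WT there turned from 1.34 to -0.71 with gates of 2 UMIs.

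Fasl was low in all 3 classes. It was at 60.5, 34.8 and 88.9 CPM in CD8 T cells, 40.3, 26.8 and 101 CPM in other T cells and 95.8, 32.7 and 94.4 CPM in NK cells, in the order WT, Mfn2 and Rhot1. The Mfn2 library was lowest in each class, from 10, 5 and 6 UMIs, but without keratin barcodes its CD8 T level was 76.4 CPM against 71.0 in WT. The NK ratio of Mfn2 to WT was 0.341 (0.117 to 0.816), but 0.730 (0.251 to 1.75) without keratin barcodes. In other T cells the Rhot1 library was 2.51 times WT (1.19 to 5.31). A Fasl UMI was in 26.9% of WT NK cells and 21.6% of WT CD8 T cells, and no cell had more than 4.

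Ifng, the macrophage- and tumour-activating cytokine, was at 152 CPM (118 to 193), 126 CPM (87.9 to 174) and 306 CPM (242 to 381) in CD8 T cells. Without keratin barcodes the Mfn2 level was 289 CPM against 179 in WT, a ratio of 1.61 (1.04 to 2.47). Of the 79 Rhot1 UMIs, 66 were in 1 cell, which also had 57 Nkg7 and 38 Gzmb UMIs. The Rhot1 to WT ratio was 2.01 (1.43 to 2.81) with that cell and 0.430 without the top cell of each library. An Ifng UMI was in 28.4% (20.5 to 37.6), 34.0% (21.2 to 48.8) and 14.8% (7.90 to 24.4) of CD8 T cells, and in 12.3%, 12.2% and 10.0% after thinning, where the 3 libraries were close. Other T cells had 18, 13 and 11 Ifng UMIs, or 45.3, 69.7 and 65.4 CPM. The other T ratios to WT were 1.54 (0.692 to 3.32) for Mfn2 and 1.44 (0.616 to 3.23) for Rhot1, and both intervals span 1. NK cells had 27, 2 and 10 Ifng UMIs, or 71.9, 10.9 and 39.3 CPM. The NK ratios to WT were 0.151 (0.0174 to 0.602) for Mfn2 and 0.547 (0.236 to 1.17) for Rhot1, and the first was 0.316 (0.0364 to 1.26) without keratin barcodes.

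Nkg7, which encodes a granule membrane protein needed for degranulation, was detected in nearly all killer cells. Its UMIs were in 94.8%, 98.0% and 96.3% of CD8 T cells and 91.7%, 90.6% and 94.5% of NK cells. The CD8 T levels were 2039 CPM (1909 to 2176), 1324 CPM (1194 to 1464) and 2204 CPM (2027 to 2393), with Mfn2 below the others. The NK levels were 1781, 1126 and 1793 CPM. Without keratin barcodes these became 2381, 2837 and 2388 CPM in CD8 T cells and 2097, 2149 and 1793 CPM in NK cells, and Mfn2 was no longer the lowest in either class. Other T cells had 557 CPM (486 to 635), 815 CPM (691 to 955) and 940 CPM (799 to 1098), with the WT interval below both others. Detection there was 32.3%, 62.0% and 49.3%, and 23.9%, 42.2% and 37.3% after thinning.

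Ccl5 was the most abundant member in CD8 T cells, at 4023 CPM (3839 to 4213), 3896 CPM (3671 to 4131) and 4702 CPM (4442 to 4974). Without keratin barcodes the levels were 4722, 7381 and 5049 CPM, and Mfn2 was 1.56 times WT (1.44 to 1.70). NK cells had 2263 CPM (2113 to 2420), 1736 CPM (1551 to 1937) and 1561 CPM (1412 to 1723), the reverse of the order for Gzmc between WT and Rhot1. Without keratin barcodes the Mfn2 NK level turned to above WT, at 3758 against 2602 CPM, a ratio of 1.44 (1.26 to 1.66). The Rhot1 NK ratio was 0.690 (0.611 to 0.778), and 0.600 without keratin barcodes. Other T cells had 1930, 2027 and 2992 CPM, in 36.5%, 54.0% and 54.9% of the cells.

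Ccl5 was also the one member with much RNA outside lymphocytes. Tumour-like clusters held 21.0%, 49.1% and 30% of the Ccl5 UMIs of the WT, Mfn2 and Rhot1 libraries, dendritic-like cells 15.8%, 4.01% and 9.79%, and macrophage-like cells 6.26%, 5.65% and 9.70%. Unnamed clusters held 2.32%, 2.81% and 9.54%. A macrophage-like cell held the most of any WT cell, 255 UMIs. The dendritic-like level was 1351, 884 and 1208 CPM, with a UMI in 28.7%, 23.1% and 30.2% of the cells. In tumour-like clusters 22 of 4943, 30 of 5802 and 32 of 5707 barcodes had 10 or more Ccl5 UMIs, a limit chosen after values were seen. These 0.445%, 0.517% and 0.561% of barcodes held 57.3%, 73.5% and 59.5% of the tumour-like Ccl5 UMIs. Of them 0, 0 and 1 had a CD3 UMI, and 1 in each library had a UMI of another member. At least 4 keratin UMIs were in 16, 25 and 26 of them. Which cells in these barcodes made the Ccl5 RNA was not tested. Thinned to 1000 UMIs, 0.873%, 1.24% and 1.02% of tumour-like cells had a Ccl5 UMI.

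**Figure D4:**
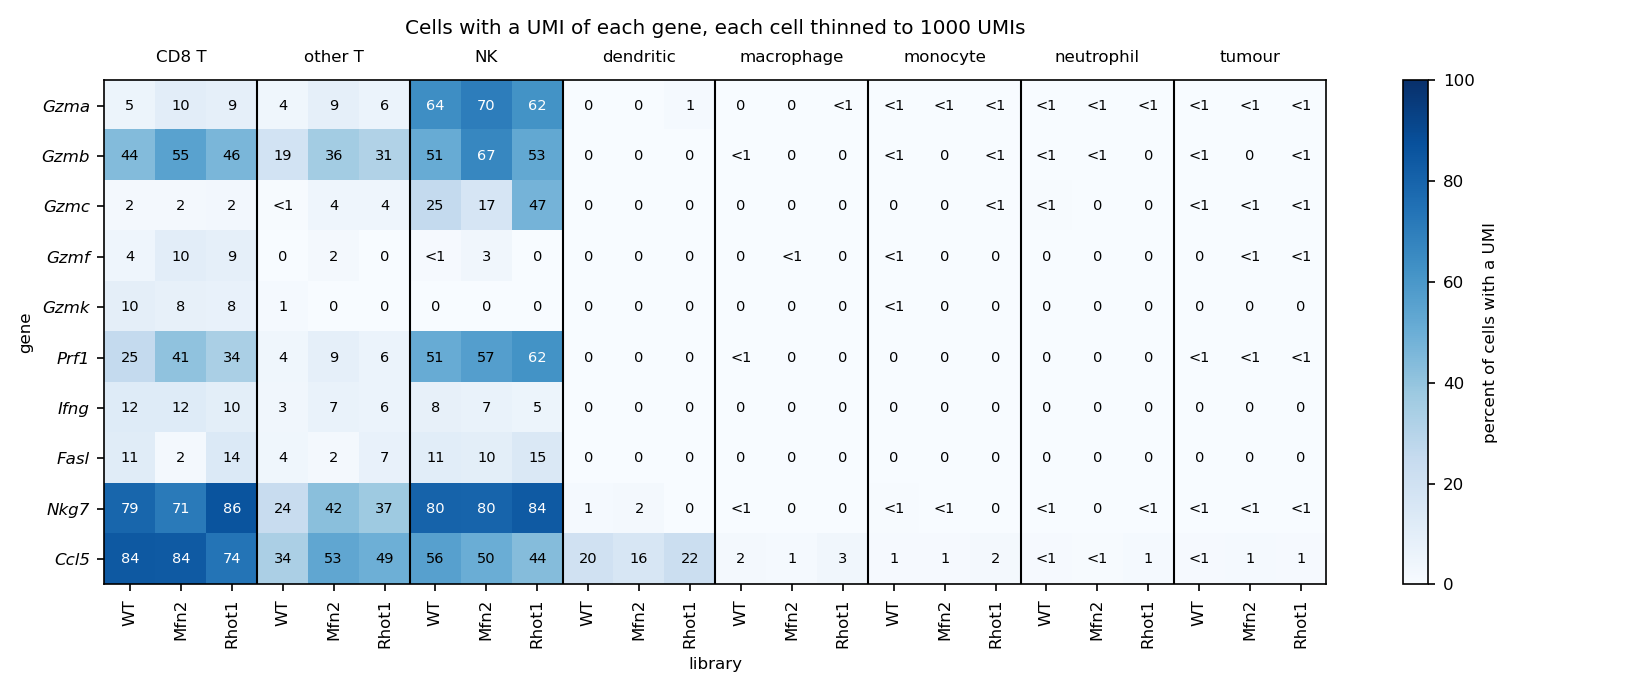
Percent of cells with a UMI of each gene (rows) in each class and library (columns), each cell thinned to 1000 UMIs, with shallower cells left out. Ccl5 stands apart in dendritic-like cells at 16% to 22%, while the other genes stay within the lymphocyte classes.

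Several members were often detected in the same cell. A median of 4 of the 10 was detected in CD8 T cells and 5 in NK cells of every library. Among CD8 T cells of all libraries, 80.6% of those with Ifng had Gzmb, against 57.3% of those without, and 96.2% of those with Gzma had Gzmb, against 59.3%. The CD8 T cells with Ifng were deeper (median 3627 against 2513 UMIs), which also raises detection, and those with Gzma were not (2355 against 2868). As levels, and without keratin barcodes, the 152 CD8 T cells with Gzmb had 323 CPM of Ifng against 63.8 in the 83 without, 788 CPM of Prf1 against 328, and 203 CPM of Gzma against 9.12. Each was higher in all 3 libraries. A single Rhot1 cell with 38 Gzmb UMIs held 66 of the Ifng UMIs, and the Ifng level without that cell was not computed. Tcf7, a transcription factor of stem-like T cells, went the other way, from 10 and 14 UMIs, a ratio of 0.303 (0.121 to 0.734). CD8 T cells with Gzmk (38 against 197) had less Il7r, from 3 UMIs, with a ratio of 0.136 (0.0276 to 0.411), in all 3 libraries.

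Other T cells held fewer members, with medians of 1, 2 and 2 in the WT, Mfn2 and Rhot1 libraries. Those with none made up 46.7% (39.0 to 54.6) in WT, 14.0% (5.82 to 26.7) in Mfn2 and 32.4% (21.8 to 44.5) in Rhot1, and 54.2%, 24.4% and 37.3% after thinning. The composition of this class also differed. Cells with Cd4 or Foxp3 were 22.8%, 40.0% and 31% of it, and cells with the gamma-delta receptor transcripts Trdc, Trgc1 or Trgc2 and neither of these were 28.7%, 10.0% and 23.9%. Within the first kind the share with no member was 44.7%, 15% and 36.4%, and in cells with none of these markers it was 38.3%, 16.0% and 28.1%, so WT had the highest share in both. Cells with none of these markers were the largest part of the class, 81, 25 and 32 cells, with medians of 1591, 1911 and 1909 UMIs. The CD8 rule needs a UMI of Cd8a or Cd8b1, so a CD8 T cell without one counted can fall among them. How many did was not tested.

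The knockout libraries were then compared with WT member by member. A member was called higher or lower at 1.5-fold or more, with at least 20 UMIs in the 2 libraries together, and the same rule over all genes gives the background. Both comparisons use the same WT library. In other T cells, 6 of 9 measured members were higher and 1 lower in the Mfn2 library, where 18.2% of all genes were higher and 16.9% lower. In the Rhot1 library 7 of 8 were higher and 0 lower, against 13% and 16.7% of all genes. Without keratin barcodes these counts were 7 and 0 of 9, against 16.3% and 17.3% of all genes, and 6 and 0 of 8, against 12.1% and 16.2%. The higher members in both libraries were Gzma, Gzmb, Gzmc and Prf1, and the summed level of all 10 was 1.54 times WT (1.41 to 1.68) in Mfn2 and 1.69 times (1.55 to 1.84) in Rhot1. Several of these counts are small and lie in single cells. Gzmc gave 6, 29 and 18 UMIs. Ifng gave 18, 13 and 11 UMIs, and the interval of its Mfn2 ratio, 0.692 to 3.32, spans 1. A Mfn2 cell of 9582 UMIs held 36 of the 37 Gzmf, 19 of the 29 Gzmc and 16 of the 28 Prf1 UMIs, and it carried 28 CD3 UMIs and all 11 UMIs of Cd8a and Cd8b1 in the class. A Rhot1 cell with 1 CD3 UMI and 6 UMIs of the NK-gate markers held 13 of the 18 Gzmc and 13 of the 29 Prf1 UMIs. Of the NK markers, Klrb1c was in 5.99%, 18.0% and 15.5% of other T cells and Ncr1 in 2.99%, 8.00% and 9.86%, while Klre1 was in 13.8%, 18.0% and 12.7%. Their part in the higher member levels was not tested, nor was that of any CD8 T cells placed in this class for lack of a counted Cd8a or Cd8b1 UMI. With gates applied to all kept cells the Rhot1 log2 ratios of Ccl5 and Nkg7 there were -0.01 and 0.03, where they were 0.63 and 0.76. The counts also rest on the gate. With at least 2 UMIs of the gate markers required, the log2 ratio of the summed level was -0.04 in Mfn2 and 0.22 in Rhot1, where it was 0.62 and 0.75.

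In NK cells of the Rhot1 library 3 of 9 members were higher (Gzmb, Gzmc and Prf1) and 2 lower (Gzmf and Ifng), against 10.9% and 15.3% of all genes. Without keratin barcodes Prf1 fell just short at 1.5 and Ccl5 was lower, which gave 2 higher and 3 lower. The WT cell with 654 Gzmc UMIs passed no gate and so is not in these ratios. With all ungated cells of the T and NK clusters counted as NK, a setting added after seeing the data, the Rhot1 log2 ratios were 0.68 for Gzmc, 0.82 for Gzmb and 0.53 for Prf1, where they were 1.33, 1.07 and 0.81, and Prf1 no longer reached 1.5-fold. The Mfn2 ratio of Gzmc was then -0.81, past 1.5-fold lower. In NK cells of the Mfn2 library 1 of 9 was higher and 3 lower, against 14.3% and 22.8%, and without keratin barcodes 2 were higher (Gzma and Gzmb) and 3 lower (Gzmc, Gzmf and Ifng), against 15.7% and 17.5%. In CD8 T cells of the Rhot1 library 2 of 10 were higher, Gzmf and Ifng, with ratios of 1.90 and 0.430 without the top cell of each library, and 0 lower, against 10.1% and 14.3%. In CD8 T cells of the Mfn2 library 1 of 10 was higher and 4 lower, against 19.2% and 19.0%. Without keratin barcodes this turned to 4 higher (Gzma, Prf1, Ifng and Ccl5) and 1 lower (Gzmc), against 12% and 17.0% of all genes in that setting. The median log2 ratio of all genes lay between -0.06 and 0.03 in the 6 comparisons, and the part of tumour RNA in the Mfn2 values beyond the keratin setting was not tested.

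**Figure D5:**
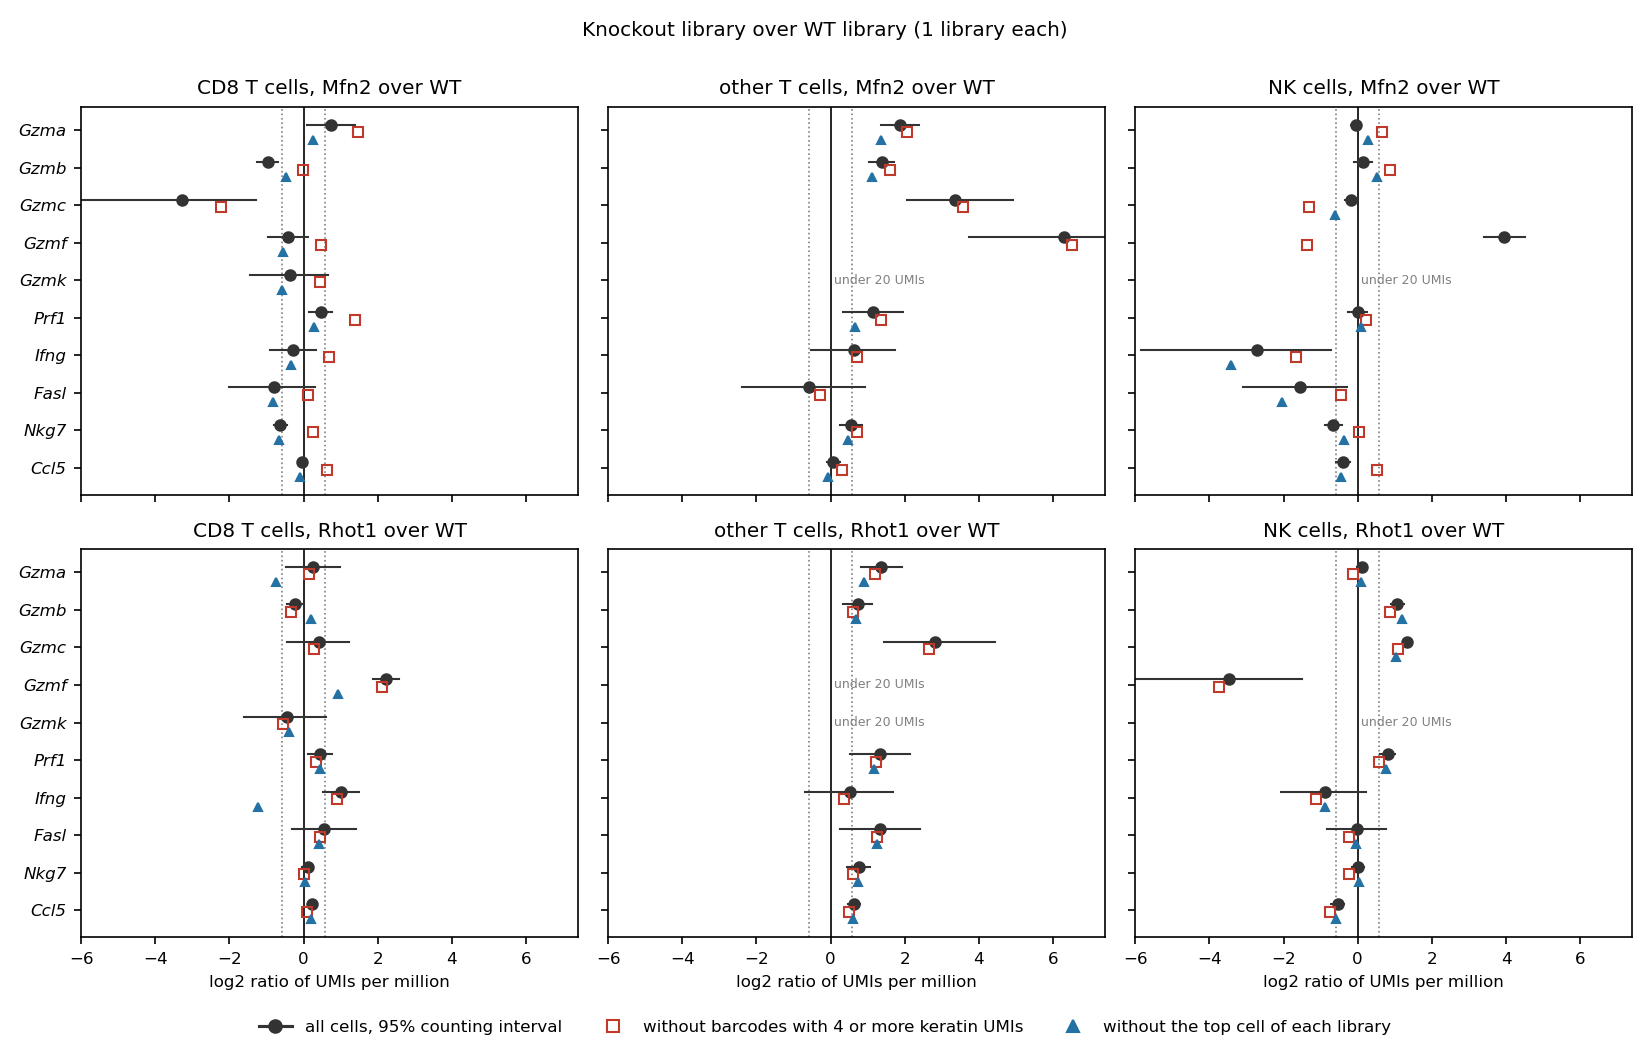
Log2 ratio of each knockout library to WT for each gene in CD8 T, other T and NK cells, with exact 95% intervals of counting error; dotted lines mark 1.5-fold. Open red squares leave out keratin barcodes and blue triangles leave out the top cell of each library; in other T cells most points lie right of 0 in both comparisons, while the squares move right of the circles in CD8 T and NK cells of the Mfn2 library, except for Gzmc and Gzmf in NK cells. Against a count of 0 the point is the level of 3 UMIs.

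The wider pathway was read from 7 lists of 59 genes, 58 of them in the files. In other T cells of the Rhot1 library 12 of 36 measured list genes were higher and 1 lower, beside 13% and 16.7% of all genes, and 8 and 3 without keratin barcodes. Among them were the chemokines Xcl1 (222 CPM in WT, 648 in the Rhot1 library), Ccl3 and Ccl4, the cytokine Tnf (ratio 2.60), and Ctsc (2.08), the protease that activates granzymes. In the Mfn2 library 4 of 34 were higher and 13 lower in the same class, beside 18.2% and 16.9% of all genes, and 4 and 11 without keratin barcodes. The higher ones included Ccl4 (3.68) and Serpinb9 (1.73), the granzyme B inhibitor, and the lower ones Il7r (0.350), Tcf7 (0.434) and Irf1 (0.445). Il7r encodes the interleukin 7 receptor of resting and memory T cells.

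In NK cells of the Rhot1 library 7 of 37 list genes were higher and 6 lower, beside 10.9% and 15.3% of all genes, and 7 and 7 without keratin barcodes. The granule proteases led: Gzmd was at 221 CPM in WT and 2702 CPM in the Rhot1 library, Gzme at 160 and 1341 CPM, and Gzmg gave 0 and 61 UMIs, the latter in 3 cells. The Rhot1 Gzmd UMIs were in 12 of 55 NK cells, and the top cells held 203, 126, 124 and 123 of the 687. Those of Gzme were in 11 cells, with 119, 33, 55 and 89 of the 341 in the same top cells. Serpinb9b (2.62) and Cst7 (1.88), an inhibitor of granule cathepsins, were also higher, while Ccl3 (0.199) and Ccl4 (0.126) were lower. In the Mfn2 library 3 of 36 were higher and 20 lower, beside 14.3% and 22.8% of all genes, and 4 and 6 of 35 without keratin barcodes, beside 15.7% and 17.5%. Xcl1, Ccl3 and Ccl4 were lower there in both settings, while Ccl5 was not: Xcl1 was at 719, 76.2 and 649 CPM in the WT, Mfn2 and Rhot1 libraries, with a Mfn2 ratio of 0.106 and 0.221 without keratin barcodes, and Ccl4 was at 218, 21.8 and 27.5 CPM, with ratios of 0.0997 and 0.208. In CD8 T cells 2 of 37 list genes were higher and 17 lower in the Mfn2 library, beside 19.2% and 19.0% of all genes, and 8 and 7 of 36 without keratin barcodes, beside 12% and 17.0%. Xcl1 (0.161 and 0.334) and Il7r (0.418 and 0.497) were lower in both settings. In the Rhot1 library 1 of 37 was higher (Xcl1, 1.96) and 4 lower, beside 10.1% and 14.3%.

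Factors of the RUNX and T-box families are given here for the motifs above, chosen after values were seen. Runx3, a RUNX factor, was at 238, 126 and 251 CPM in CD8 T cells, 204, 161 and 202 CPM in other T cells and 280, 288 and 338 CPM in NK cells. Eomes, a T-box factor, was at 173, 109 and 150 CPM in NK cells and at 47.1, 31.4 and 46.4 CPM in CD8 T cells. Tbx21, the other T-box factor, was at 77.2, 54.4 and 62.9 CPM in NK cells. The target-side receptor Fas was near 0 in these classes, at most 20.2 CPM, and Ifngr1 was at 642, 419 and 621 CPM in NK cells. The lower Mfn2 values of this paragraph were not seen without keratin barcodes for Runx3 and Eomes in CD8 T cells (ratios of 0.914 and 1.08), nor for Eomes, Tbx21 and Ifngr1 in NK cells (1.12, 1.37 and 1.18), where Runx3 was 1.87 times WT.

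Across 30 units of class and library with at least 20 cells, the genes whose log2 levels followed each member most closely were ranked among 9981 genes. Gzmb was closest to Sh2d1a (Pearson r = 0.992), Il2rb and Prf1, and Prf1 to Zbtb32 (r = 0.987) and Gzmb. Gzma was closest to Samd3 (r = 0.983) and Eomes, Gzmc to the NK receptor gene Klra9 (r = 0.974), and Gzmk to Glp1r (r = 0.952) and Cd8b1. Fasl was closest to Skap1 (r = 0.990) and Ctsw, Nkg7 to Il2rb (r = 0.989), Ccl5 to Klrd1 (r = 0.952) and Ifng to Ubash3a (r = 0.964). Gzmf had the weakest match, Slain1 (r = 0.806). The units share 3 libraries and their depth, and lymphocyte classes stand apart from all others, so any lymphocyte gene scores high.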

How the data were processed

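The deposited files are gene-by-cell matrices of raw UMI counts, 1 per library. Per the file headers, Cell Ranger 7.0.0 made them. The submitters' processing notes name mm10. No annotation version or intron setting is given in the sources used here. Barcodes with at least 300 genes and at most 15% mitochondrial UMIs were kept, and Scrublet doublets were removed (2.73%, 3.12% and 2.36% of the WT, Mfn2 and Rhot1 libraries). The 3 libraries were clustered together with scanpy 1.11.5 and leidenalg 0.10.2 at resolution 1 (2000 variable genes without the 10 members, 30 components, 15 neighbours), which gave 23 clusters named by fixed markers. Counts were summed per class and library. Shares have exact Clopper-Pearson, levels exact Poisson and ratios exact conditional 95% intervals (scipy 1.17.1). A count of 0 was set to 3 UMIs for a bound. With 1 library per genotype no test was made. The scripts were tested on simulated counts.

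The members and lists were chosen with earlier results of these data known. All 10 members are named in every class. From each list the 2 highest and 2 lowest ratios with at least 20 UMIs are named, with its most abundant genes; for each member, the 3 genes with the highest Pearson r of log2(CPM + 5). A few list genes outside this rule, such as Ctsc and Fas, were named after their values were seen, as were the splits by Gzmb, Gzmc and Gzmk.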

Additional observations from a re-analysis of the deposited data

Results flagged for a closer look

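For 3 granzymes and Ifng the log2 ratio to WT was past 1.5-fold in opposite directions in different cell classes of the same library. Other members also differed in sign, but below that size in 1 of the classes. Examples are Nkg7 in the Mfn2 library (-0.62 in CD8 T, 0.55 in other T cells) and Ccl5 in the Rhot1 library (0.63 in other T, -0.54 in NK cells). None of these differences was tested, since each class has 1 library per genotype. For Gzmb in the Mfn2 library the log2 ratio was -0.97 in CD8 T cells and 1.38 in other T cells, and for Gzmc -3.27 and 3.36. The Gzmc values came from 2 Mfn2 and 30 WT UMIs in CD8 T cells, and 29 and 6 in other T cells. A single cell held 19 of the 29. Without keratin barcodes the CD8 T value of Gzmb was -0.02. For Ifng in the Mfn2 library the log2 ratio was 0.62 in other T cells and -2.72 in NK cells, the latter from 2 Mfn2 UMIs. The other T value came from 13 Mfn2 and 18 WT UMIs, and the interval of its ratio, 0.692 to 3.32, spans 1. In the Rhot1 library Gzmf was at 2.22 in CD8 T cells and -3.48 in NK cells, and Ifng at 1.00 and -0.87. The NK value of Gzmf came from 33 WT UMIs, all in 1 cell, and 2 Rhot1 UMIs. One cell held 194 of the 251 Gzmf UMIs and another held 66 of the 79 Ifng UMIs of Rhot1 CD8 T cells. Without the top cell of each library the CD8 T value of Ifng was -1.22, the same sign as in NK cells.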

How the results depend on the processing

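No paired analysis was possible because each genotype has 1 library. Of 571 member values under the alternatives chosen at the start, 462 stayed within counting error, 95 moved and 14 changed sign. All values below are log2 ratios unless given as percent, and the causes were not tested. Thinned to 1000 UMIs, in the Mfn2 library Gzmb in CD8 T cells became 0.15 and Nkg7 0.076 in CD8 T and 0.0444 in NK cells, and Ifng in Rhot1 CD8 T cells -0.12. With classes from sub-clusters, Mfn2 values became 0.23 for Gzmb, 0.81 for Gzmc and 0.17 for Nkg7 in CD8 T cells, and -0.88 for Gzmf and 0.0901 for Nkg7 in NK cells. With gates applied to all kept cells, Ccl5 and Gzmb in Rhot1 other T cells became -0.0078 and -0.0008, and the shares of NK cells 0.44 (Mfn2) and 0.28 (Rhot1), where they were -1.83 and -0.99; the gate marker Klra4 was in 46.3% of tumour-like cells. With gates of 2 UMIs, Gzma in Mfn2 other T cells became -0.13 and Prf1 in Rhot1 other T cells -0.71. Without keratin barcodes, added after seeing the data, Mfn2 values became 0.11 for Fasl and 0.25 for Nkg7 in CD8 T cells and -1.37 for Gzmf and 0.0353 for Nkg7 in NK cells. Without the top cells Ifng in Rhot1 CD8 T cells became -1.22.

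The summed members are given as Mfn2 then Rhot1. Thinned, they were 0.25 and 0.16 in CD8 T and 0.39 and 0.21 in NK cells. With sub-clusters they were 0.36 and 0.15 in CD8 T, 0.39 and 0.069 in NK and 1.63 and 1.79 in other T cells, whose Rhot1 share was -2.15. With doublets kept they were 0.12 and 0.10, 0.0626 and 0.30, and 0.80 and 0.28 in the same order. With gates on all cells they were -0.10 and 0.18 in CD8 T, -1.13 and -0.16 in NK, and 0.0845 for Rhot1 in other T cells. With gates of 2 UMIs they were -0.0713 and 0.37 in CD8 T and -0.0361 and 0.22 in other T cells. With the members among the variable genes NK cells gave 0.0685 and 0.65. Without keratin barcodes they were 0.53 and 0.17 in CD8 T, 0.23 and 0.32 in NK and 0.84 and 0.61 in other T cells, and without the top cells Rhot1 NK cells gave 0.44. With ungated cells counted as NK, also added after seeing the data, NK cells gave -0.21 and 0.36. The median detection over members, thinned, was 11.2% and 11.8% in Mfn2 and WT CD8 T cells and 45.5% and 38.2% in Rhot1 and WT NK cells. At a fold of 2, 16.1% and 7.78% of all genes passed in CD8 T, 15.2% and 9.65% in NK and 13.1% and 10.5% in other T cells. With genes of 1 UMI or more, 63.3% and 55.6% passed in CD8 T, 61.6% (Mfn2) in NK and 60.5% and 59.1% in other T cells. Depth limits Gzmk, Fasl and Ifng, at 79 UMIs or fewer per class and library. It also limits Gzmc in CD8 T and other T cells, at 30 UMIs or fewer, and Gzmf in other T cells, at 37 or fewer.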
